A study of Arabidopsis thaliana with 6 samples.

Results

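Poly(A) RNA of wild-type Arabidopsis thaliana ovules at the FG1 to FG3 stages was described from 3 of the 6 libraries of the study, those labelled wild type. The other 3 libraries, labelled sgd mutant, were not used here. All came from the qrt1 background, in which the pollen grains of a tetrad stay joined, so the wild type carries this background too. Plants were grown in a greenhouse with 16 h of light and 8 h of dark at 22 °C. The design text speaks of about 6000 ovules without saying whether this is per library, and the labels do not say whether the libraries came from separate plants, so the spread between them may be technical. A gene was called present when it reached 1 FPKM or more in all 3 libraries. FPKM counts sequenced fragments relative to transcript length and to all mapped fragments, so levels can be compared between genes per length. Of 29889 nuclear loci (identifiers starting AT1G to AT5G), 16279 were present, or 54.5%. There is 1 group here, so no test was run, and every comparison below is a description of 3 libraries.

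An ovule is the organ that becomes the seed. It consists of a stalk, a chalaza, inner and outer integuments that become the seed coat, and a nucellus in which a spore mother cell goes through meiosis. A single surviving spore, the functional megaspore, marks stage FG1, and the young embryo sac has begun its nuclear divisions by FG2 and FG3. Egg cell, central cell and synergids form only later. Most cells of an ovule at these stages are sporophytic cells of the integuments, chalaza and stalk.

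Promoter windows of 5 genes are printed first, because short sequence elements were unevenly spread between abundant and other genes. Each window runs from 250 bases before to 50 bases after the annotated gene start, is 300 bases long, is written 5′ to 3′ on the strand of the gene, and was read from the RefSeq TAIR10.1 genome. Capitals mark matches to the site II element (TGGGCC or TGGGCT, or their reverse complements GGCCCA and AGCCCA) and to the telo-box (AAACCCTA or its reverse complement), elements known from plant ribosomal protein genes. AT3G60245 (chr3:22268438-22268737, plus strand), AT4G15000 (chr4:8571566-8571865, plus strand) and AT4G27090 (chr4:13595203-13595502, minus strand) are the most abundant ribosomal protein genes. LTP6 (chr3:2664839-2665138, minus strand) is the most abundant protein-coding gene, and STK (chr4:6241232-6241531, minus strand) is the most abundant MADS-box gene.
AT3G60245: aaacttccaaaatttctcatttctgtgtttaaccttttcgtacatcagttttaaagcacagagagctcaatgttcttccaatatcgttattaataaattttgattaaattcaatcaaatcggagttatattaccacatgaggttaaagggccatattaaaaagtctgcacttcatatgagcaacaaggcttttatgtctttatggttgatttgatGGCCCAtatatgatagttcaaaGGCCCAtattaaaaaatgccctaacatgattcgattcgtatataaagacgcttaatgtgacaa
AT4G15000: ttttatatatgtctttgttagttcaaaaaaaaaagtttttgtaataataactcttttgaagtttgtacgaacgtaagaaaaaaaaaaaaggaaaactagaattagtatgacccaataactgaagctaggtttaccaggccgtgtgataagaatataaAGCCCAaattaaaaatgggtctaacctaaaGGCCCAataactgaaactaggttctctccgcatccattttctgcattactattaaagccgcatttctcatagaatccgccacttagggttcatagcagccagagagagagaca
AT4G27090: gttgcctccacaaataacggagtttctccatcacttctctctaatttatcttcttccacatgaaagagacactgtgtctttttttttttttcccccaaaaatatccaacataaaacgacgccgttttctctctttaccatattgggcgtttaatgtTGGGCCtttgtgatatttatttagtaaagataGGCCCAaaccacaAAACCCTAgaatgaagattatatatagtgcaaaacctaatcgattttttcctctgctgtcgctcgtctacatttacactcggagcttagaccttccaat
LTP6: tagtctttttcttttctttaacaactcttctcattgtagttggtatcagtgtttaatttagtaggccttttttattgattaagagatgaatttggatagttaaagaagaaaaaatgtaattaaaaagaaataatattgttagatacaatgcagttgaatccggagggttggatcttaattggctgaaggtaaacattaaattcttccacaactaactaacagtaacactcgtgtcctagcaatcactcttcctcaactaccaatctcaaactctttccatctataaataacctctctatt
STK: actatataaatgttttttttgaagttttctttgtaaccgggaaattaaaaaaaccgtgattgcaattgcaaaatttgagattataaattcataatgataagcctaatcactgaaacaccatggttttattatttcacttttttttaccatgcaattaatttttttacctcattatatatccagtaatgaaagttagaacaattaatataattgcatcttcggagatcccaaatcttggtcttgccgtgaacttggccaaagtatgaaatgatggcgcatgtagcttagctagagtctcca
Each of the 3 ribosomal windows held 2 site II matches, and that of AT4G27090 also held 1 telo-box match. Neither element matched in the windows of LTP6 and STK, which says only that these letters are not in those windows.

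The 3 libraries were closely correlated across genes, but library 1 stood apart in level. Depth, estimated from the steps of low values, was 25300000, 34400000 and 40800000 fragments in libraries 1, 2 and 3. At these depths 1 FPKM in a gene of the median transcript length, 1772 bases, equals 40.2, 53.5 and 61.4 fragments. Pearson correlations of log2(FPKM + 1) across nuclear genes were 0.988 between libraries 1 and 2, 0.986 between libraries 1 and 3, and 0.996 between libraries 2 and 3. Summed nuclear FPKM was 515604, 747984 and 771199. The noncoding locus AT3G06355 stood at 44051, 788 and 935 FPKM, and held 8.54%, 0.105% and 0.121% of the nuclear sum. RefSeq places a 5.8S ribosomal RNA gene, AT3G41979, inside it. Chloroplast and mitochondrial loci held 2.18% of all FPKM in library 1, 0.0652% in library 2 and 0.0525% in library 3. Present genes deviated from their own mean by a median of -0.37, 0.16 and 0.22 on the log2 scale in libraries 1, 2 and 3. The cause of the lower level in library 1 was not tested. Median-ratio scaling divides each library by the median ratio of its genes to their geometric means (factors of 0.784, 1.11 and 1.16). Orders of the libraries are given below for FPKM as deposited unless scaling is named, and where scaling turned a stated order this is said beside it.

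The most abundant protein-coding genes encoded proteins of several kinds, with a lipid transfer protein, a beta-glucosidase and a thionin in the lead. Levels are given throughout in the order of libraries 1, 2 and 3. LTP6, a lipid transfer protein of the kind secreted to cell walls and cuticles, led with 2503, 7694 and 7543 FPKM, a mean of 5913 ± 2955 FPKM (SD, n = 3). BGLU18, a beta-glucosidase of endoplasmic reticulum bodies, followed with 2573, 5313 and 5723 FPKM. The antimicrobial peptide gene THI2.1, a thionin, stood at 3060.2, 4015 and 4215 FPKM. As deposited, library 1 was the lowest for all 3 genes. After scaling it was the lowest for LTP6 and BGLU18 and the highest for THI2.1, at 3902, 3618 and 3647 scaled FPKM.

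A GILT-type thiol reductase gene, AT4G12960, stood at 2632, 3505 and 2982 FPKM, and its relative AT4G12870 at 1503, 1478 and 1770.5 FPKM. In AT4G12870 library 1 lay between the others as deposited and was the highest after scaling, at 1916, 1332 and 1532 scaled FPKM. The translation elongation factor gene AT5G60390 followed with 1374, 2184 and 2126 FPKM, and FLR1, which encodes a leucine-rich repeat protein, with 979, 2122 and 2385 FPKM. MBP2, a myrosinase-binding protein of the glucosinolate defence system, was at 883, 2131 and 2099.9 FPKM. Library 1 was the lowest for the last 3 of these genes, as deposited and after scaling.

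Among the remaining genes of the first 30, PGL5, a 6-phosphogluconolactonase of the pentose phosphate route, reached 696, 1983 and 1977 FPKM, and the nucleoside diphosphate kinase gene NDPK1 806, 1682 and 2079.8 FPKM. GRP7, a clock-controlled RNA-binding protein, was at 944, 1320.0 and 1798 FPKM. The H2B histone genes HTB2 and HTB9 stood at 853, 1493 and 1520.1 FPKM and at 675, 1173 and 1243 FPKM, respectively. A thaumatin family gene, AT2G28790, was at 1123, 1381 and 1340.0 FPKM. The defensin-like gene LCR69 reached 737, 1203 and 1414 FPKM, and the knottin gene AT2G43530 229, 1493 and 1661 FPKM. AT2G43530 had the widest spread of the 30 after AT3G06355, with its highest library 7.24 times its lowest. A putative membrane lipoprotein gene, AT4G29030, stood at 597, 2111 and 2019 FPKM. The first 30 genes reached down to a mean of 1030 FPKM, which HTB9 marked.

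**Figure D1:**
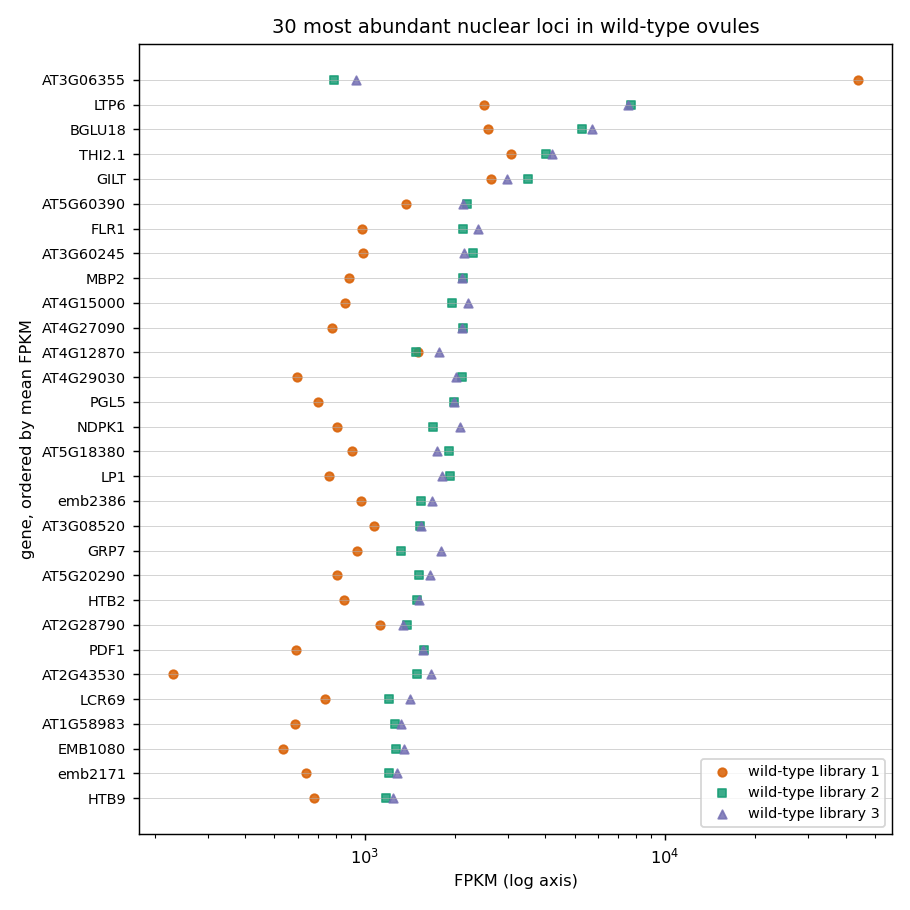
FPKM on a log axis of the 30 nuclear loci with the highest mean, with 1 symbol for each of the 3 wild-type libraries. Library 1 lies to the left of the others for most genes and far to the right for AT3G06355 (44051 against 788 and 935 FPKM).

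Ribosomal protein genes, whose products build the small and large ribosome subunits, filled much of the top ranks. By their RefSeq product, 52 of the 100 most abundant loci and 9 of the 30 most abundant were ribosomal protein genes. AT3G60245, a zinc-binding ribosomal protein, stood at 988, 2293 and 2139 FPKM. AT4G15000, a large-subunit L27e protein, stood at 856, 1955 and 2211 FPKM, and the L14 gene AT4G27090 at 779.6, 2121 and 2107 FPKM. In all 3 genes library 1 was below the others, as deposited and after scaling. The count is a lower one, since ribosomal genes such as EMB1080 carry a product name without the word; EMB1080 was at 534, 1273 and 1356 FPKM. All 384 loci of the family together held 13.0%, 16.1% and 16.0% of nuclear FPKM.

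A small number of genes held a large part of the signal. The 100 most abundant loci held 21.7%, 17.2% and 17.1% of nuclear FPKM in libraries 1, 2 and 3, and the first 1000 held 48.9%, 48.4% and 48.0%. The share of the first 100 was higher in library 1 only with AT3G06355. Without this locus the 100 most abundant held 14.4%, 17.2% and 17.1%, so that library 1 was the lowest. Present genes had a median level of 17.6 FPKM. Of these, 4993 had a mean from 1 to 10 FPKM, 10197 from 10 to 100, 1057 from 100 to 1000, and 32 had a mean of 1000 or more.

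The elements marked in the printed windows were more frequent in abundant genes than in all nuclear loci. Each motif was searched on both strands of the 300-base windows. The 2 forms of site II differ only in the last letter, and a window with both counts for each. TGGGCC was found in 58% of the 100 most abundant genes (95% Wilson interval 48.2% to 67.2%), 21.3% of present genes, 14.8% of all nuclear loci and 5.69% of loci listed at 0 in all libraries. TGGGCT was found in 49%, 18.6%, 13.8% and 7.80% of the same sets. Both forms were thus most frequent in the first 100 and least frequent in the loci listed at 0.

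Ribosomal protein genes carried most of these matches. Either form was found in 90.4% of the 52 ribosomal genes among the first 100 (interval 79.4% to 95.8%) and in 43.8% of the other 48 (interval 30.7% to 57.7%). These 48 still include ribosomal protein genes whose product name lacks the word, such as EMB1080. Shares given for them are therefore not those of non-ribosomal genes alone. The telo-box was found in 31% of the first 100, 6.11% of present genes, 6.11% of all loci and 5.91% of loci listed at 0. Its share was 50% in the 52 ribosomal genes and 10.4% in the other 48. TATAAA, the core of the TATA box, was found in 64% of the first 100 (interval 54.2% to 72.7%), 50.03% of present genes and 51.6% of all loci. GAGAGAGA, a GA repeat, was found in 9% of the first 100 and 8.12% of all loci, with intervals that overlap. Related ribosomal genes share ancestry, so windows are not independent. A match is a description of letters and not of a bound site.

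**Figure D2:**
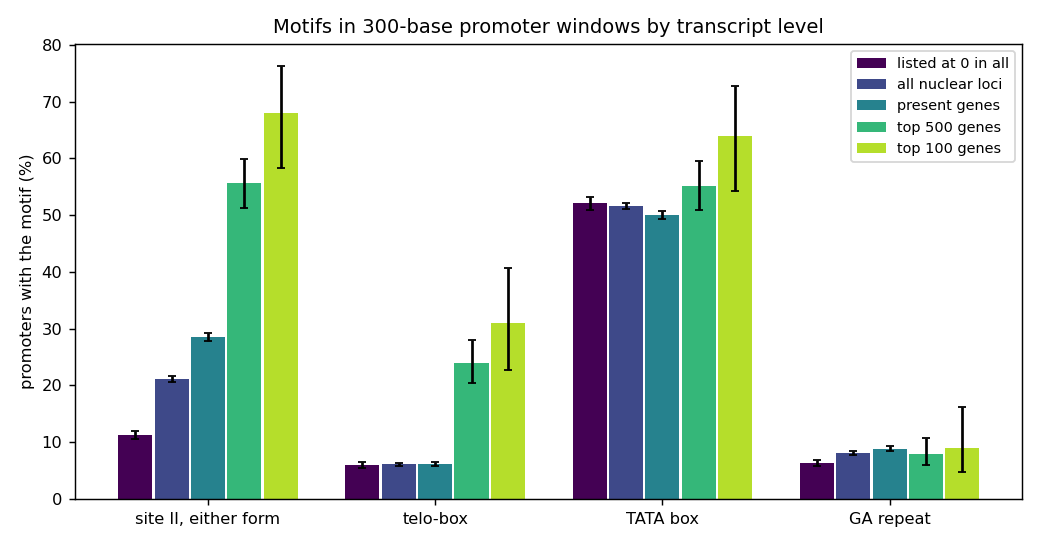
Share of 300-base promoter windows (vertical axis, %) that hold each motif on either strand, for loci listed at 0, all nuclear loci, present genes and the 500 and 100 most abundant, with 95% Wilson intervals as error bars. Site II of either form rises from 11.2% of loci listed at 0 to 68% of the first 100, while the GA repeat lies between 6.31% and 9% in every set.

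The present genes were mostly protein-coding. Of 27444 protein-coding loci 59.1% were present, and of 2444 long noncoding loci 48 were. A further 6562 loci were listed at 0 in all libraries, which in FPKM need not mean that no RNA was there. Loci at 1 FPKM or more numbered 676 in exactly 1 library, 662 in exactly 2 and 12272 in none. Against this background, 409 of the 556 different genes on 30 lists chosen by role were present, or 73.6%. These lists hold many well-studied genes, so their share is no measure of enrichment.

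**Figure D3:**
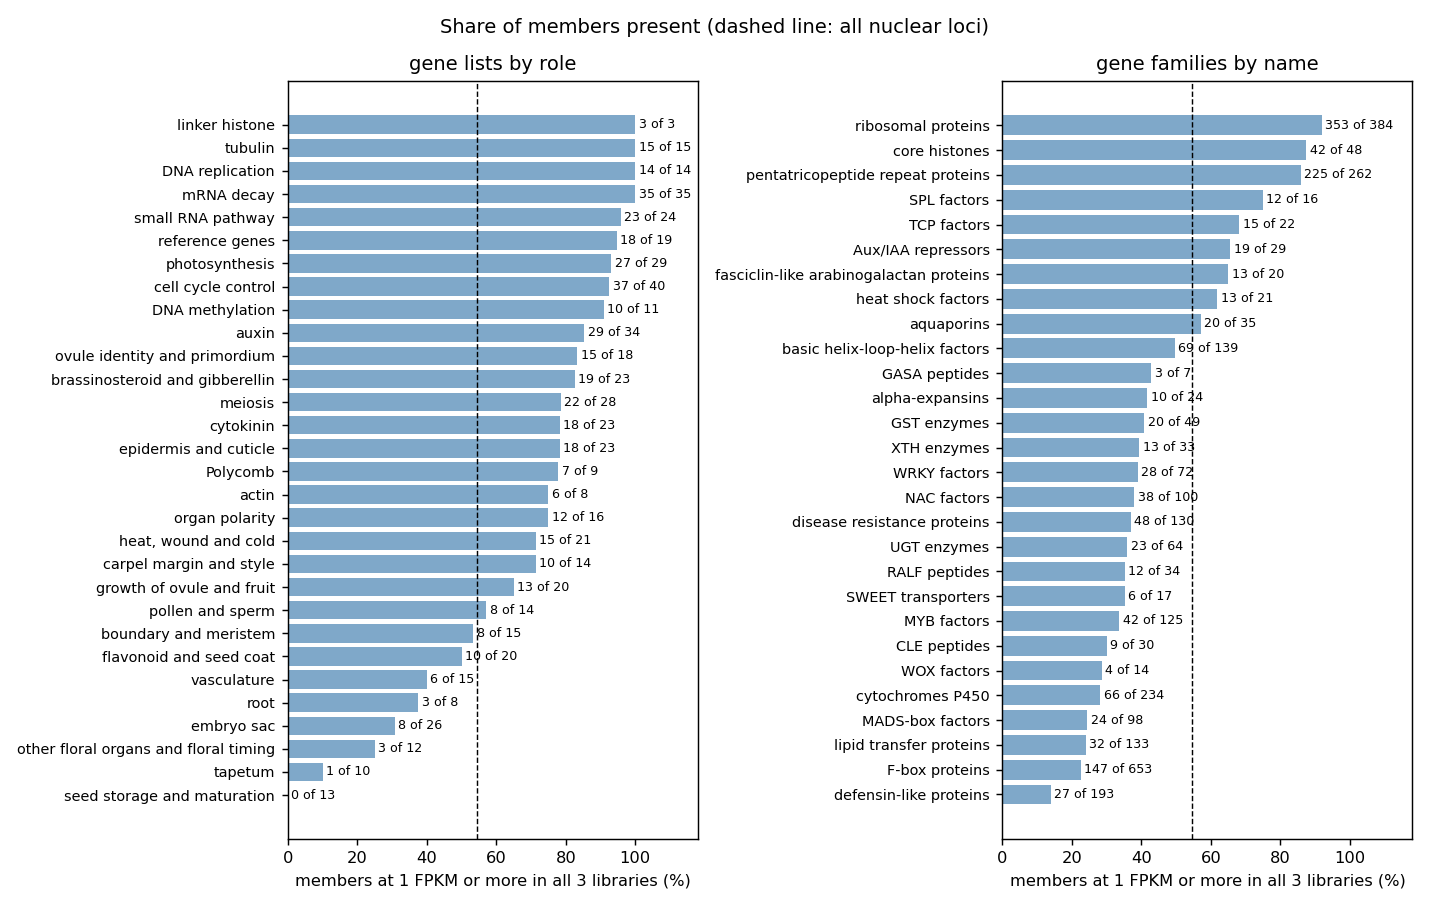
Share of members at 1 FPKM or more in all 3 libraries (horizontal axis, %) for 30 gene lists and 28 gene families, with counts beside the bars and a dashed line at the 54.5% of all nuclear loci. The lists of mRNA decay, DNA replication, tubulin and linker histone genes lie at 100%, that of tapetum genes at 10% and that of seed storage genes at 0.

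Regulators of ovule identity reached high levels. Of 18 list members 15 were present. STK, the MADS-box factor that specifies ovule identity, stood at 341, 738 and 750.4 FPKM, a mean of 609.7 ± 233 FPKM (SD, n = 3) and the highest of the transcription factor families examined here. Its partner SEP3 stood at 191, 416 and 474 FPKM. SHP1 and SHP2, which act with STK, stood at 112, 170.4 and 161 FPKM and at 109.5, 178 and 189.8 FPKM. As deposited, library 1 was the lowest for each of these genes. After scaling it was the lowest for STK, SEP3 and SHP2, while SHP1 was at 142, 154 and 139 scaled FPKM, with library 3 the lowest.

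AG, the carpel and stamen identity factor, was lower than its relatives, with 59.5, 73.2 and 80.4 FPKM. SEP1 and SEP2 were at 96.9, 132 and 151 FPKM and at 109.7, 183 and 201 FPKM, while SEP4 stayed at 0.13, 0.08 and 0.09 FPKM. TT16, the B-sister MADS factor of the seed coat endothelium, was at 103, 123 and 108 FPKM with a CV (the SD over the mean) of 9.11% as deposited and 17.1% after scaling. ANT, which promotes integument growth, stood at 62.0, 92.6 and 98.5 FPKM, and BEL1, the homeodomain factor of the chalaza, at 21.8, 26.5 and 32.4 FPKM. SUP, which limits outer integument growth, was at 20.5, 35.5 and 41.5 FPKM.

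Early nucellar regulators were low. SPL (SPOROCYTELESS), needed for the spore mother cell, was present at a mean of 1.27 ± 0.12 FPKM (SD, n = 3). WUS, the nucellar homeodomain factor that acts in young primordia, was listed at 0, 0.03 and 0 FPKM. HLL, a ribosomal-type protein needed for primordium growth, was at 37.3, 66.8 and 73.1 FPKM. Of the AINTEGUMENTA-like genes, AIL5 was at 7.23, 13.8 and 15.3 FPKM, PLT3 at 3.14, 5.06 and 5.26 FPKM and PLT7 below the threshold at 0.24, 0.36 and 1.02 FPKM.

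**Figure D4:**
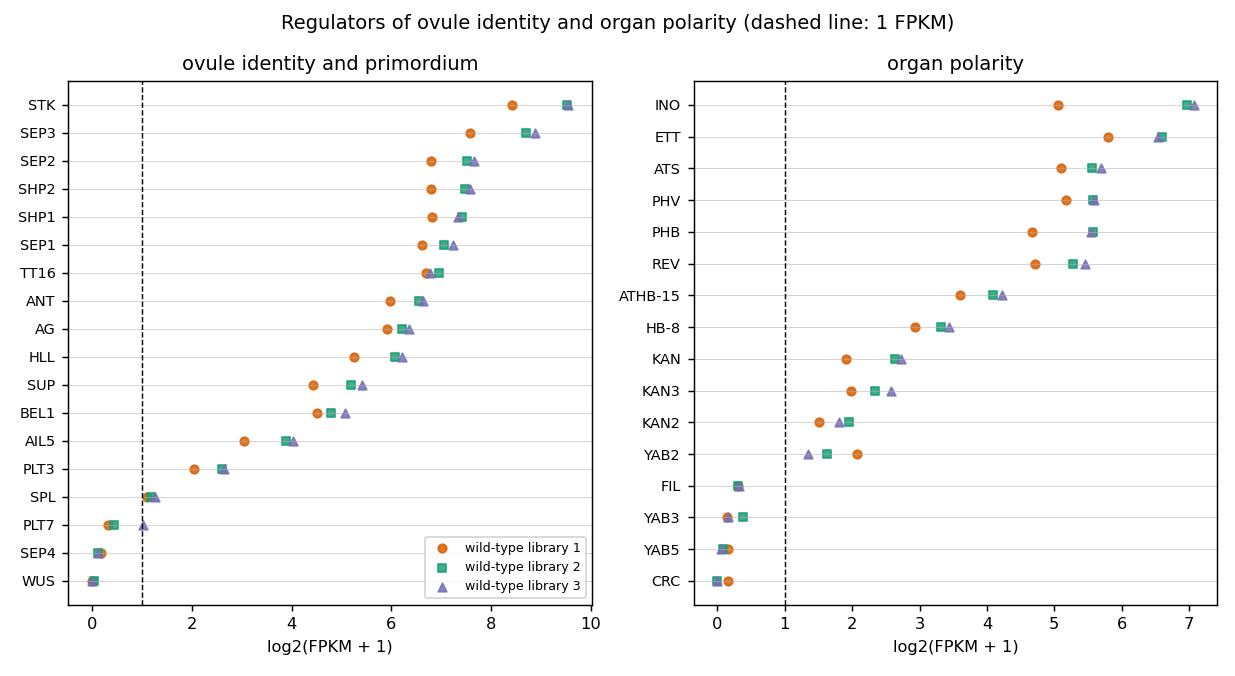
Levels of the 18 ovule identity and 16 organ polarity genes as log2(FPKM + 1), with 1 symbol per wild-type library and a dashed line at 1 FPKM. STK and INO lead their panels, and WUS, CRC, YAB3, YAB5, FIL and SEP4 lie left of the line in all libraries.

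Polarity genes fell into present and near-zero members. INO, the YABBY factor of the outer integument, stood at 32.2, 124 and 133 FPKM. Library 1 was well below the others, also after scaling. Its relatives CRC, FIL, YAB3 and YAB5, known from carpels and leaves, were all below 1 FPKM in every library. FIL, for example, was at 0.23, 0.23 and 0.25 FPKM, and YAB2 alone of them was present, at 3.2, 2.08 and 1.55 FPKM. The inner integument factor ATS was at 33.4, 46.2 and 50.8 FPKM and its partner ETT at 54.4, 96.1 and 92.0 FPKM. KAN, KAN2 and KAN3, other abaxial factors, were lower, KAN at 2.76, 5.23 and 5.63 FPKM. Among class III HD-ZIP genes, which promote adaxial identity, PHB was at 24.6, 46.5 and 45.8 FPKM, PHV at 35.02, 46.4 and 47.1 FPKM and REV at 25.1, 37.8 and 42.7 FPKM. In all, 12 of 16 members were present.

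Of the boundary and meristem genes, the 3 CUC genes were present and class I KNOX genes were not. CUC2 and CUC3, NAC factors of organ boundaries, stood at 20.8, 28.5 and 30.7 FPKM and at 18.6, 21.4 and 22.1 FPKM, and CUC1 was near the threshold at 1.44, 1.5 and 1.7 FPKM. LOB, another boundary gene, was listed at 0 in all libraries. The class I KNOX genes STM, KNAT1, KNAT2 and KNAT6, which maintain meristems, were below 1 FPKM in all libraries, STM at 0.79, 0.57 and 0.1 FPKM. The class II genes KNAT3, KNAT4 and KNAT5 were present, KNAT3 at 43.4, 51.0 and 51.0 FPKM, and their relative KNAT7 was not, at 1.05, 0.31 and 0.31 FPKM. CLV3, the stem cell peptide, was at 0, 0.29 and 0.17 FPKM, while its receptor gene CLV1 was at 3.51, 6.83 and 5.12 FPKM. Of the 15 members 8 were present, close to the share of all loci.

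Growth regulators of the ovule and fruit were present in 13 of 20 cases. The receptor kinase genes ER, ERL1 and ERL2 were at 104, 137 and 149 FPKM, 142, 182 and 198 FPKM and 29.8, 44.9 and 48.3 FPKM, while the stomatal co-receptor TMM stayed at 0.35, 0.24 and 0.36 FPKM. Of the CYP78A cytochromes, which promote organ growth, CYP78A5 was present at 2.84, 10.8 and 11.6 FPKM and the other 5 were not, CYP78A9 at 0.83, 0.62 and 0.73 FPKM. The growth-regulating factor GRF5 was at 42.6, 51.7 and 55.3 FPKM and its coactivator GIF1 at 75.5, 180.4 and 156 FPKM. GRF7 was the only one of the 9 GRF genes listed that was not present, at 0.03, 0 and 0.05 FPKM.

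Of 12 genes for other floral organs and flowering time, 3 were present. AP2, which also acts in the seed coat, was at 23.2, 34.2 and 36.1 FPKM, and SVP, a floral repressor, at 7.64, 16.1 and 11.2 FPKM. AP3, a petal and stamen identity factor, was at 22.5, 59.2 and 63.8 FPKM, while PI, the partner it binds, was at 0, 0.14 and 0.25 FPKM. AP1 and LFY, early flower regulators, were near or at 0. AP1 was listed at 0.04, 0 and 0 FPKM and LFY at 0 in all libraries. FUL, known from the carpel valves, was at 2.17, 1.42 and 0.67 FPKM, below the threshold in library 3 alone.

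Carpel margin and style genes were present in 10 of 14 cases. ALC, a helix-loop-helix factor of fruit opening, led with 104, 141 and 145 FPKM. RPL, a homeodomain factor of the replum, was at 40.2, 44.9 and 43.7 FPKM. STY1, a style regulator, was at 32.4, 84.1 and 94.5 FPKM, with library 1 well below the others, also after scaling. HEC3 and SPT, helix-loop-helix factors of the transmitting tract, were at 10.3, 14.4 and 25.4 FPKM and 11.8, 21.3 and 20.9 FPKM, while HEC1, HEC2, NGA4 and the valve margin factor IND were not present. Whether carpel tissue contributed to these values was not tested, and in bulk RNA fewer cells of a type and less RNA per cell cannot be told apart.

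Meiosis genes remained detectable, with 22 of 28 present and most of them low. DMC1, the meiotic recombinase, was at 19.2, 28.0 and 31.7 FPKM. HEI10, which acts in crossover formation, and PRD3, which acts in break formation, were at 16.1, 25.6 and 21.9 FPKM and 17.4, 22.4 and 24.2 FPKM. As deposited, library 1 was the lowest for each of these genes. After scaling it was the lowest for DMC1, while library 3 was the lowest for HEI10 and library 1 the highest for PRD3, at 22.2, 20.2 and 20.9 scaled FPKM. The axis protein gene ASY1 was at 1.05, 0.7 and 1.12 FPKM and the break enzyme SPO11-1 at 1.5, 1.78 and 3.25 FPKM. SWI1, needed at the start of meiosis, and TDM1, needed at its end, were below 1 FPKM in all libraries, at 0.11, 0.07 and 0.29 FPKM and 0.24, 0.11 and 0.17 FPKM.

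Genes known from the mature embryo sac were mostly below the threshold, with 8 of 26 present. AGL80, a central cell MADS factor, was at 1.99, 3.06 and 3.4 FPKM. The egg cell genes EC1.1 to EC1.5 were all present at low levels. Of the EC1.1 transcript 46.9%, and of that of EC1.2 48.0%, matched another locus at 100% identity, so reads there may not be theirs alone. EC1.1 was at 6.91, 5.17 and 2.01 FPKM and EC1.5 at 7.28, 3.57 and 2.7 FPKM, both highest in library 1, while EC1.4 was at 11.5, 12.3 and 11.7 FPKM with a CV of 3.72%, or 19.7% after scaling. Regulators of the embryo sac were lower. MYB98, the synergid factor, was at 0.56, 0.48 and 0.34 FPKM, CKI1, a histidine kinase of central cell fate, at 0.02, 0.12 and 0.09 FPKM, and MYB64 and MYB119, which act at cellularization, at 0.52, 1.03 and 0.78 FPKM and 0.22, 0.76 and 1.04 FPKM. The RKD genes of egg cell identity were below 1 FPKM in all libraries. AT2G20070, a defensin-like gene, was the highest of the list with 14.4, 26.3 and 26.3 FPKM. LURE1.2, a pollen tube attractant, was at 4.82, 2.05 and 1.62 FPKM. Its transcript matches that of another locus, AT5G43525, at 98.5% identity, and reads may be divided between them.

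Pollen markers were low and, as a sum, highest in library 1. Of 14 list members 8 were present, or 57.1%, close to the 54.5% of all nuclear loci. The 14 summed to 39.3, 20.01 and 20.39 FPKM. The pectin methylesterase gene VGD1 was at 6.4, 2.09 and 2.81 FPKM and the arabinogalactan protein genes AGP6 and AGP11 at 4.31, 1.29 and 1.77 FPKM and 5.21, 2.08 and 1.67 FPKM. The sperm markers MGH3 and DUO1 were near 0, at 0.29, 0.06 and 0.11 FPKM and 0.04, 0.03 and 0 FPKM. After median-ratio scaling, library 1 exceeded the mean of the others by a median of 1.96 on the log2 scale in present pollen genes, and all 8 were higher in it. In the 8 present embryo sac genes the median was 1.54, with 6 higher. The same quantity over all present genes had a median of -0.03, with 7483 of 16279 higher. The part of pollen RNA in other values of library 1 was not tested.

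**Figure D5:**
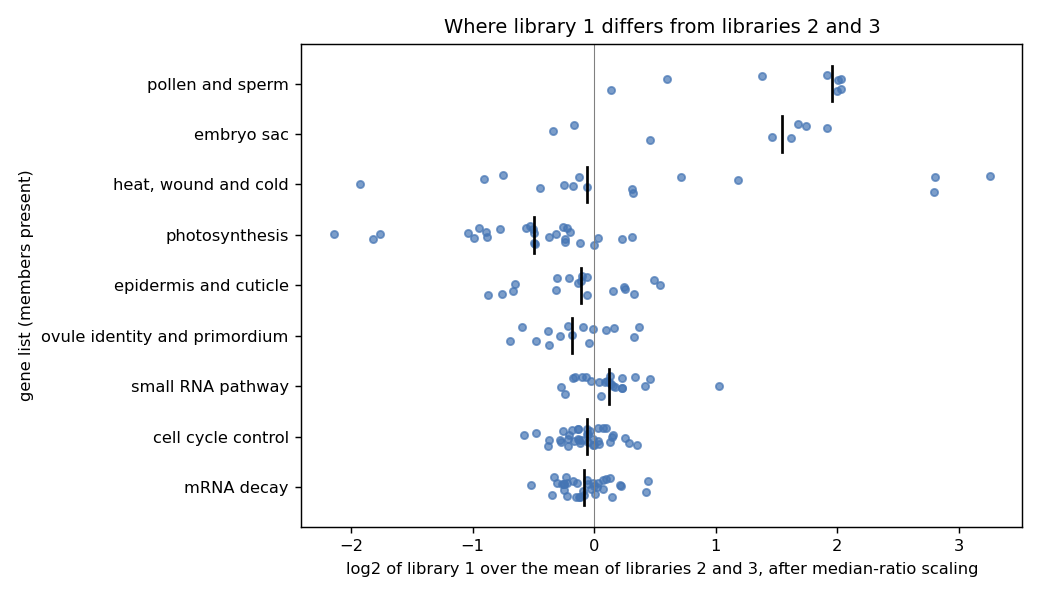
Log2 ratio of library 1 to the mean of libraries 2 and 3 after median-ratio scaling (horizontal axis) for present members of 9 lists, with 1 point per gene and a black bar at each median. The medians of pollen and embryo sac genes lie at 1.96 and 1.54, that of photosynthesis genes at -0.49, and those of mRNA decay and cell cycle genes near 0.

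Lists of tapetum, seed and root genes had 1 of 10, 0 of 13 and 3 of 8 members present. Of 10 tapetum genes, from the anther layer that feeds pollen, only LAP6 was present, at 9.65, 11.5 and 8.59 FPKM, and the tapetal regulators DYT1, MS1 and MYB80 were listed at 0 in all libraries. None of the 13 seed storage and maturation genes was present, and their summed level was 0.19, 0.30 and 0.15 FPKM. The root hair genes EXPA7 and COBL9 were listed at 0. SHR and SCR, radial patterning factors of the root that other organs also express, were at 66.9, 89.9 and 94.8 FPKM and 39.1, 39.4 and 40.2 FPKM. The part of other tissues in the values was not tested. The ovule markers STK, INO and BEL1 were present in every library, at the levels given above.

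Photosynthesis genes were present in 27 of 29 cases and spread more than most. CAB1, a chlorophyll-binding protein of the light-harvesting antenna, stood at 266, 975 and 593 FPKM. The Rubisco small subunit gene RBCS1A was at 142, 266 and 177 FPKM, and PSBR of photosystem II at 182, 419.7 and 357 FPKM. As deposited, library 2 was the highest in each and library 1 the lowest. After scaling library 2 was the highest in each, and for RBCS1A library 3 was the lowest, at 181, 239.8 and 154 scaled FPKM. After scaling, all 27 present members were higher in library 2 than in library 3, by a median of 0.44 on the log2 scale, where 8114 of all 16279 present genes were. The members not present were RBCS1B and RBCS2B, further small subunit genes, at 0.47, 0.68 and 0.05 FPKM and 0.21, 0.2 and 0.26 FPKM.

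Most early flavonoid genes were present and the late ones were not. TT5 and F3H, early enzymes of the pathway, were at 7.67, 11.8 and 9.28 FPKM and 8.52, 14.7 and 11.8 FPKM, and TT4, the first enzyme, at 6.06, 3.94 and 2.07 FPKM. DFR, LDOX and BAN, which lead to proanthocyanidins, were below 1 FPKM in all libraries, BAN at 0.81, 0.85 and 0.68 FPKM. The regulators TT8, TTG1 and EGL3 were at 19.8, 27.4 and 24.6 FPKM, 34.0, 43.4 and 48.4 FPKM and 11.5, 21.8 and 23.1 FPKM. TT2, the MYB factor that switches on BAN, was near the threshold at 1.43, 1.94 and 1.42 FPKM. TT7, a hydroxylase between the early and late steps, was at 2.31, 1.39 and 0.8 FPKM. In all, 10 of 20 members were present, close to the share of all nuclear loci, 54.5%.

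Epidermal genes were abundant, with 18 of 23 present. ATML1 and PDF2, HD-ZIP factors of epidermal identity, were at 178, 285 and 278 FPKM and 124, 182 and 202 FPKM, and PDF1, a protein of the outermost layer, at 590.2, 1572 and 1558 FPKM. LTP1, the epidermal lipid transfer protein, was at 762, 1918 and 1812 FPKM. DCR, needed for cutin, was at 269, 598 and 638 FPKM, and FDH, a fatty acid elongase of the epidermis, at 176, 317 and 313 FPKM. Library 1 was lowest for all of these, as deposited and after scaling. SPCH, MUTE and FMA, the factors of stomatal lineage, were below 1 FPKM in every library.

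Vascular genes were present in 6 of 15 cases. LHW, which promotes vascular divisions, was at 68.9, 94.2 and 103 FPKM, and the receptor gene PXY at 20.4, 19.1 and 20.5 FPKM. Its peptide genes CLE41 and CLE44 were at 7.72, 8.46 and 9.62 FPKM and 10.7, 10.5 and 10.8 FPKM. The CV of CLE44 was 1.22% as deposited and 22.4% after scaling. The xylem genes VND7, IRX3 and XCP1 were not present, and IRX3 was at 1.29, 0.59 and 0.5 FPKM.

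Auxin genes were present in 29 of 34 cases. TAA1 and YUC1, which make auxin, were at 15.9, 24.3 and 26.0 FPKM and 4.55, 6.11 and 5.18 FPKM, and YUC2 stayed below 1 FPKM. The import carrier gene AUX1 was at 48.2, 45.4 and 47.4 FPKM, and after scaling at 61.4, 40.9 and 41.0 with library 1 the highest, while EIR1 (PIN2), an export carrier known from roots, was at 0.03, 0 and 0 FPKM. Of the response factors, ARF2 was at 180.0, 264 and 270.1 FPKM and MP, which patterns vascular and primordium cells, at 119, 149 and 155 FPKM. All 4 receptor genes listed were present, AFB3 being the highest at 30.8, 44.4 and 45.2 FPKM.

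Cytokinin genes were present in 18 of 23 cases. The receptors HK2, HK3 and WOL were at 14.9, 16.9 and 18.2 FPKM, 16.7, 21.2 and 20.9 FPKM and 7.13, 14.8 and 16.6 FPKM. Type-A response regulators, which rise with cytokinin, included ARR4 at 9.36, 25.9 and 36.2 FPKM and RR7 at 1.44, 7.91 and 10.11 FPKM, both lowest in library 1, also after scaling. CKX5, which breaks cytokinin down, was at 13.9, 28.1 and 36.9 FPKM. After scaling, the log2 ratio of library 1 to the mean of the others had a median of -0.53 in the present members, 6 of 18 being higher. Over all present genes the median was -0.03, with 7483 of 16279 higher. Of the IPT synthesis genes listed, IPT1 was present, at 4.45, 7.33 and 9.67 FPKM.

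Brassinosteroid and gibberellin genes were present in 19 of 23 cases. BRI1, the brassinosteroid receptor, was at 57.9, 59.1 and 61.0 FPKM. Its CV was 2.63% as deposited and 20.1% after scaling, with library 1 then the highest. The gibberellin synthesis gene GA20OX2 was at 57.8, 64.3 and 70.1 FPKM, while GA20OX1 and GA3OX1 were below 1 FPKM in all libraries, at 0.06, 0 and 0.02 FPKM and 0.26, 0.61 and 0.8 FPKM. The DELLA repressor genes RGA1, RGL2, RGL1 and GAI were present, RGA1 at 50.5, 80.3 and 81.2 FPKM, and RGL3 was at 0.9, 1.45 and 1.31 FPKM.

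Small RNA genes were present in 23 of 24 cases and included a gene of very high level. AGO9, the argonaute that limits spore mother cell number in ovules, stood at 842, 1093 and 1062 FPKM, a mean of 999 ± 137 FPKM (SD, n = 3) and rank 33 of all nuclear loci. AGO1, the main microRNA argonaute, was at 178, 320.1 and 302 FPKM, AGO5, known from the cells around the megaspore, at 169, 224 and 219.6 FPKM, and AGO4, of DNA methylation, at 155, 190.5 and 189.9 FPKM. The CV of AGO9 was 13.7% as deposited and 7.79% after scaling, and that of AGO1 28.9% and 11.8%. After scaling library 1 was the highest for AGO9, at 1073, 985 and 919 scaled FPKM, and the lowest for AGO1. AGO8 was the member not present, at 0.15, 0.05 and 0.08 FPKM. The dicer gene DCL1 was at 18.2, 19.4 and 19.9 FPKM and the RNA polymerase gene RDR6 at 12.8, 15.9 and 15.7 FPKM.

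DNA methylation genes were present in 10 of 11 cases. CMT3, of CHG methylation, was at 54.8, 73.2 and 78.8 FPKM and MET1, of CG methylation, at 37.3, 49.3 and 50.7 FPKM. DME, a demethylase known from the central cell, was at 22.0, 21.1 and 22.0 FPKM, and ROS1, its relative in other cells, at 24.7, 27.4 and 28.6 FPKM. DRM2 was at 10.7, 13.6 and 14.1 FPKM and DRM1 at 1.27, 3.89 and 4.36 FPKM. DML3 was not present, at 0.03, 0.04 and 0.02 FPKM.

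Of the Polycomb genes, all but MEA and FIS2 were present. MSI1 was at 55.1, 99.4 and 109 FPKM, FIE at 22.7, 37.4 and 38.1 FPKM, SWN at 28.8, 43.0 and 41.4 FPKM and CLF at 18.6, 27.6 and 28.0 FPKM. MEA and FIS2, known from the central cell and endosperm, were at 0.25, 0.31 and 0.17 FPKM and 0.25, 0.1 and 0.06 FPKM. In all, 7 of 9 members were present.

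All 35 mRNA decay genes, 14 DNA replication genes, 15 tubulin genes and 3 linker histone genes were present. Among decay genes, the decapping protein DCP5 was at 91.7, 136 and 129.7 FPKM and LSM1A, a subunit that promotes decapping, at 55.3, 91.1 and 106 FPKM. The deadenylase gene CAF1a was uneven, at 14.1, 13.4 and 35.6 FPKM, with library 3 the highest. PCNA1, the sliding clamp of replication, was at 63.2, 107 and 111 FPKM. H1.1 and H1.2, the main linker histones, were at 358, 524 and 556 FPKM and 145, 175 and 187 FPKM, while the stress-induced HIS1-3 was at 5.39, 3.35 and 3.01 FPKM. TUB3 and TUA4 led the tubulins, at 401, 678 and 649 FPKM and 399, 589.6 and 614 FPKM, and TUB1 varied most, at 8.23, 43.6 and 55.6 FPKM.

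Cell cycle genes were present in 37 of 40 cases. CYCD3;3, a D-type cyclin that promotes division in growing organs, led with 92.3, 136 and 188 FPKM. The mitotic kinase gene CDKB2;1 was at 60.8, 92.1 and 89.7 FPKM and the mitotic cyclin gene CYCB1;2 at 49.3, 80.9 and 88.9 FPKM. Among inhibitors, KRP4 was at 21.3, 33.5 and 32.9 FPKM and KRP6 at 8.12, 16.8 and 18.3 FPKM. RBR1, the retinoblastoma protein needed to stop divisions in the embryo sac, was at 36.5, 43.7 and 42.7 FPKM. CYCD7;1, a cyclin of the stomatal lineage, was at 0.65, 0.16 and 0.31 FPKM and was not present, nor were CYCA2;1 and LGO. Of the actins, ACT7 led with 323, 433 and 482 FPKM, while the pollen actins ACT4 and ACT12 were at 0.51, 0.35 and 0.07 FPKM and 0.62, 0.43 and 0.27 FPKM.

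Genes that respond to heat, wounding and cold were uneven. Of 21 members 15 were present, and 11 of these varied 2-fold or more after scaling, where 854 of all present genes did, or 5.25%. HSP70 stood at 24.1, 3.18 and 4.12 FPKM, HSFA2, a heat shock factor, at 11.8, 1.51 and 3.38 FPKM, and DREB2A, a dehydration and heat factor, at 18.3, 2.37 and 5.28 FPKM. All 3 were highest in library 1. The touch genes TCH2 and XTH22 were at 109, 120.5 and 224 FPKM and 25.7, 15.3 and 45.1 FPKM, and the zinc finger gene RHL41 at 30, 24.4 and 74.1 FPKM. These were highest in library 3. After scaling, the log2 ratio of library 2 to library 3 had a median of -0.72. Higher in library 2 were 1 of 15 present members, against 8114 of all 16279 present genes. Handling times are not given in the sources used here, and their part was not tested.

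Reference genes were present in 18 of 19 cases. PP2AA3, a phosphatase subunit often used for scaling, was at 30.3, 48.2 and 49.8 FPKM, and SAND at 20.6, 31.9 and 32.2 FPKM. UBQ10 was at 504, 914 and 834 FPKM. Each was lowest in library 1, also after scaling, and the scaled median CV of the list was 7.67%. AT1G58050, sometimes used as a reference, was listed at 0, 0.04 and 0.04 FPKM and was not present.

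Gene families differed widely in the share present, which was 54.5% over all nuclear loci. Ribosomal proteins had 353 of 384 present (91.9%), core histones 42 of 48 and pentatricopeptide repeat proteins, which process organelle RNA, 225 of 262 (85.9%). The last were low, led by PPR336 at 52.2, 71.8 and 76.8 FPKM. SPL factors had 12 of 16 present, TCP factors 15 of 22 and Aux/IAA repressors 19 of 29. IAA8, an auxin response repressor, was far above its relatives at 313, 549 and 620.2 FPKM, IAA9 following at 126, 165 and 191 FPKM. TCP24 led the TCP factors at 35.1, 48.7 and 54.5 FPKM and SPL1 the SPL factors at 37.8, 47.0 and 52.5 FPKM.

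Large transcription factor families were present in smaller shares. Helix-loop-helix factors had 69 of 139 present, or 49.6%, close to the 54.5% of all nuclear loci. WRKY factors had 28 of 72 present (38.9%), NAC factors 38 of 100, MYB factors 42 of 125 (33.6%) and MADS-box factors 24 of 98 (24.5%). Of these MADS-box loci, 25 were listed at 0. WOX factors had 4 of 14 present. WOX13 was the highest at 22.4, 33.3 and 35.3 FPKM, and PFS2, known from ovule patterning, was at 2.57, 7.81 and 12.1 FPKM. MYB95 led the MYB factors at 132, 177 and 202 FPKM, NAC2 the NAC factors at 37.9, 56.1 and 58.4 FPKM, and ZAP1 the WRKY factors at 33.7, 48.0 and 49.1 FPKM. The heat shock factor HSFB4 was at 37.1, 37.2 and 38.1 FPKM, with a CV of 1.42% as deposited and 21.4% after scaling.

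Families of secreted and metabolic proteins differed in the share present, and several had members of high level. Lipid transfer proteins had 32 of 133 present and defensin-like proteins 27 of 193, of which 106 were listed at 0. F-box proteins had 147 of 653 present and cytochromes P450 66 of 234. The highest P450 was CYP706A3 at 182, 330.4 and 323 FPKM. Aquaporins had 20 of 35 present, led by PIP3 at 408, 775 and 841 FPKM. XTH9, a wall xyloglucan enzyme, was at 386, 678 and 792 FPKM, and EXPA6, an expansin, at 135, 160.2 and 173 FPKM. The sugar transporter gene SWEET4 was at 123, 107 and 109 FPKM, the only SWEET above 100 FPKM in any library. CLE27 led the CLE peptides at 30.9, 34.0 and 38.7 FPKM, RALFL34 the RALF peptides at 64.6, 111 and 118.2 FPKM, GASA4 the GASA peptides at 122, 132 and 167 FPKM, and FLA10 the fasciclin-like proteins, of which 13 of 20 were present, at 164, 252 and 219 FPKM.

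Libraries lay closer together after scaling. As deposited, the median CV of present genes was 22.6%, and 1985 of 16279 genes, 12.2%, varied 2-fold or more between their lowest and highest library. After median-ratio scaling the median CV was 9.81% and 854 genes varied so, and in libraries 2 and 3 alone the scaled median CV was 4.87%. Scaled CV was 13.7% for means of 1 to 10 FPKM, 8.39% for 10 to 100 and 11.2% for 100 or more. Without library 1 the unscaled median CV was 5.55% and 168 genes varied 2-fold or more. The lower level of library 1 depended on length, at a median log2 ratio to the others of -0.65 for transcripts under 1000 bases and -0.40 for those over 3000, while that of library 2 to library 3 was -0.06 in every length class.

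The genes with the lowest CV of deposited FPKM, among those averaging 50 FPKM or more, were not the most even after scaling. AT1G28280, a VQ motif protein, stood at 56.7, 55.8 and 55.8 FPKM, a CV of 0.901%. CEL2, a cellulase, was at 189, 196 and 189 FPKM, and UPL2, a ubiquitin ligase, at 63.9, 65.7 and 63.0 FPKM. The other 7 were AT4G20320, FLA8, BRI1, AT3G24480, AGL6, chr31 and LpxC2, with AGL6, a MADS factor, at 58.6, 60.6 and 57.1 FPKM. After scaling, the CVs of these 10 genes were 20.1% to 24.4%, with library 1 the highest in each. Any gene with nearly equal deposited values comes out this way, since these are divided by factors of 0.784, 1.11 and 1.16. The contrast therefore says nothing about these genes in particular. The lowest CVs after scaling were 0.223% for TPL, a transcriptional co-repressor, at 43.9, 62.0 and 64.8 FPKM as deposited, 0.321% for AT5G47030, an ATPase subunit, at 106, 151 and 157 FPKM, and 0.373% for CKL2, a casein kinase, at 52.7, 74.8 and 77.3 FPKM.

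The most uneven genes, by the ratio of highest to lowest library, were mostly loci that match organelle or ribosomal RNA. They were taken from genes averaging 10 FPKM or more with a nonzero value in every library. Of the 10, 7 loci with AT2G07 identifiers matched the mitochondrial genome at 99.9% to 100% identity, 6 of them over the whole transcript. AT2G07687, a cytochrome c oxidase subunit, stood at 39.0, 0.53 and 0.74 FPKM, and AT2G07727, cytochrome b, at 42.2, 0.68 and 0.79 FPKM. AT3G06355 was among the 10. AT2G09250, a noncoding locus whose transcript matches the response regulator gene RR3 at 100%, was at 162, 5.24 and 2.2 FPKM. All these were highest in library 1. LCR55, a defensin-like gene, went the other way, at 0.74, 14.6 and 16.9 FPKM.

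Near the threshold, presence rested on small differences. GID1C was at 1.22, 1.3 and 1 FPKM, PIN6 at 1, 1.59 and 2.07 FPKM and GL2 at 1.5, 1.35 and 1.03 FPKM, the members just at or above it. RGL3, CYCA2;1 and XCP2 lay just below, at 0.9, 1.45 and 1.31 FPKM, 0.96, 1.67 and 2.19 FPKM and 2.93, 0.98 and 1.42 FPKM. Each of the latter had at least 1 library over 1 FPKM. Some named genes had a transcript nearly identical to that of another locus (98% identity over 80% of the transcript), so their reads may be divided. These were AT1G25055, AT1G25211, AT1G58983, AT2G07675, AT2G09250, SPL3, TCP9, CYP77A4, LURE1.2 and GEX2. Matches over less of the transcript, as in EC1.1 and EC1.2, are not in this list. Position and strand were not compared, so the other locus may be an overlapping gene model and not a separate copy.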

How the data were processed

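Poly(A) RNA libraries of wild-type ovules (n = 3) were used as deposited, and the 3 sgd libraries were left out. Values are FPKM with 2 decimals, computed by the authors, per the file headers. The submitters' processing notes name build TAIR10 and, without roles or order, the tools TopHat2 2.1.1, cutadapt 1.15, DESeq2, RSEM and CASAVA. Whether counting used strand is not stated. Analyses ran in Python 3.11.15 with pandas 2.3.3 and numpy 2.4.6.

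Presence was 1 FPKM or more in all 3 libraries. CV is SD over mean. Correlations used log2(FPKM + 1). Depth came from the size of the steps between low FPKM values in single-transcript genes. At the fitted step 97.0% to 97.8% of these values came out whole, to within 0.2 fragments. Wilson intervals cover counting error only. All 29889 nuclear identifiers matched RefSeq (assembly TAIR10.1), from which names, products, lengths, promoter windows and blastn 2.17.0 comparisons were taken, with coordinates in that build only.

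The members, 30 gene lists and 28 families were chosen with earlier results of these data known, and family rules were corrected after their matches were seen. Genes were named by fixed rules: the 30 highest means, members of the lists, the 3 highest of a family, the 10 lowest CVs with a mean of at least 50 FPKM, the 10 highest ratios with a mean of at least 10 FPKM, and the 3 list members on each side of the threshold. Ratios were ranked only for genes with a nonzero value in every library. The 3 lowest CVs after scaling were added once values had been seen. EMB1080, among the 30 highest, was singled out for its product name. Alternatives were thresholds of 0.5 and 5 FPKM, other scalings, a pseudocount of 0.1, other gene sets and leaving out each library. Depth and spread steps were tested on simulated data. A few list members are counted with their lists but not reported by name here.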

Additional observations from a re-analysis of the deposited data

Results flagged for a closer look

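Signal appeared in features outside the nuclear loci described above, for which there is no control sample here. Chloroplast and mitochondrial loci held 2.18% of summed FPKM in wild-type library 1, 0.0652% in library 2 and 0.0525% in library 3, so library 1 stands apart. In the same library AT3G06355 and nuclear loci with mitochondrial sequence were also highest. A further 164 features with XLOC numbers, which carry no gene name in the files, reached 1 FPKM or more in all 3 libraries. The highest of them, XLOC_009990, stood at 45.8, 135 and 95.6 FPKM. The cause was not tested in either case.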

How the results depend on the processing

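The number of nuclear genes present ranged from 12932 (5 FPKM) to 17255 (0.5 FPKM) around 16279, and from 16383 to 16680 when a library was left out. List members present ranged from 324 to 432 around 409. Of 210 counts for single lists under alternatives, 203 lay within 1.5 times and 7 further away, 6 of them at 5 FPKM and 1 at 0.5 FPKM. At 5 FPKM, present pollen and sperm genes fell from 8 to 0, embryo sac genes from 8 to 2 and meiosis genes from 22 to 11. Heat, wound and cold genes fell from 15 to 6, auxin genes from 29 to 19 and cytokinin genes from 18 to 11. Vascular genes rose from 6 to 10 at 0.5 FPKM. The number of genes varying 2-fold or more fell from 1985 to 1211 at 5 FPKM, 831 after rescaling to equal totals and 816 after median-ratio scaling with presence judged on the scaled values, and lay between 168 (without library 1) and 1627 (without library 2) when a library was left out, with 1279 without library 3. The median CV, 22.6% as deposited, was 9.67% after rescaling to equal totals and 9.79% after median-ratio scaling, and lay between 5.55% (without library 1) and 29.1% (without library 2). The mean correlation between libraries was 0.990, and 0.978 over present genes only. In the 500 most abundant genes TGGGCC was found in 45.8% and TGGGCT in 37.2%, against 58% and 49% in the first 100. The share of FPKM in the first 100 was 16.2% without AT3G06355, against a mean of 18.6%. No paired analysis was possible because there is 1 group and no test. Depth limits what can be said of genes under 1 FPKM, which short transcripts reach with few fragments.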
